A study of Xenopus laevis with 11 samples.

Results

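The neural border of the stage 14 frog embryo was set against animal cap ectoderm of the same stage. The arrays were chosen by their titles, which gave 3 border arrays and 1 cap array, or 4 of the 11 arrays in the study, and every probe set that is not a control was examined. The study, on Xenopus laevis, followed tissue that gives rise to the neural crest and added reference tissues. Its other arrays, which entered the estimate of the spread, held the early neural plate of stage 12 (n = 2) and, from stage 18, the later border (n = 2) and the anterior fold (n = 3), a border region that makes no crest. The border was microdissected from embryos, whereas the cap was an explant that had been kept until control stage 14, by which time it turns into epidermis, so tissue and culture history cannot be told apart. No strain, mutant allele or agent is named for any group. Arrays of a group are labelled as biological replicates, but no label ties them to separate clutches, so the p-values speak of the spread among these samples alone, and that spread may be technical. The cap, with 1 array, has no SD, and its variance was taken from the replicated groups.

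Ectoderm of the frog gastrula becomes epidermis where bone morphogenetic protein (BMP) signalling is high and neural plate where secreted antagonists keep it low. Between these territories lies the neural border, where intermediate BMP signalling together with Wnt and FGF signals turns on border specifier genes such as pax3, zic1 and tfap2a. These factors act upstream of the crest specifiers, among them snai2, foxd3 and sox9, whose products prepare cells to leave the epithelium and migrate. The animal cap is the roof of the blastula. Its cells can still form many tissues when removed, and they become epidermis when they are left without neural or mesodermal inducers.

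Levels are given on the log2 scale of the deposited table, where a difference of 1 is a 2-fold difference in intensity. Tag controls, sequences with no frog counterpart, had a 95th percentile of 3.72, and a level below that was treated as within background, in which case a fold is given as "at least" and computed against 3.72. Array medians lay between 4.94 and 5.04. The cap array correlated with single border arrays at 0.913 to 0.915 over all probe sets, and border arrays with each other at 0.983 to 0.993. Of the 11 arrays, the cap was the highest at 3317 probe sets and the lowest at 2540. Plate replicate 1 was the highest at 2903 and the lowest at 2610, and each of the remaining arrays was the highest at 582 to 1427 and the lowest at 656 to 1575. The difference between 3' and 5' control probe sets is meant to gauge RNA integrity and labelling. For beta actin it was -3.14 in the cap and -3.08 to -2.75 in the border, and for Gapd 1.85 against 2.08 to 2.55. For the actin control a1Act it was -1.58 against -1.33 to -0.74, and for a3Act 0.13 against -0.03 to 0.19. A negative difference means a brighter 5' probe set, so the beta actin and a1Act values are not a plain measure of integrity. The part of RNA quality in the results was not tested.

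Of 15491 probe sets, 4785 (30.9%) differed between border and cap at an adjusted p of 0.05 in a limma model of all 11 arrays. The border was higher at 2343 (15.1%) and lower at 2442 (15.8%), and the median log2 difference over all probe sets was -0.04. A difference of at least 2-fold was reached by 1332 of the higher and 1234 of the lower probe sets, and one of at least 16-fold by 42 and 15. In 21 of those 42 the cap was within background, and in 5 of those 15 the border was. Where each named gene was represented by its brightest probe set, 1092 of 6505 genes (16.8%) were higher in the border and 1150 (17.7%) lower. The cap array lay outside the range of the 3 border arrays at 76.4% of all probe sets, so lack of overlap with the cap was common. The labelled tissues were checked against markers. The 4 neural plate markers averaged 4.48 in the cap and 7.97 to 8.20 in the border arrays and all passed, and the 6 neural border markers averaged 5.14 and 8.35 to 8.72, with 4 past the test. For pax3 this check used a bright probe set, described below, that was not tested to read pax3. Of 24 epidermal markers 10 were lower in the border, and the list averaged 6.45 in the cap and 5.33 to 5.68 in the border, although 10 of its keratins were within background in both tissues. In bulk tissue, fewer cells of a type and less RNA per cell cannot be told apart.

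**Figure D1:**
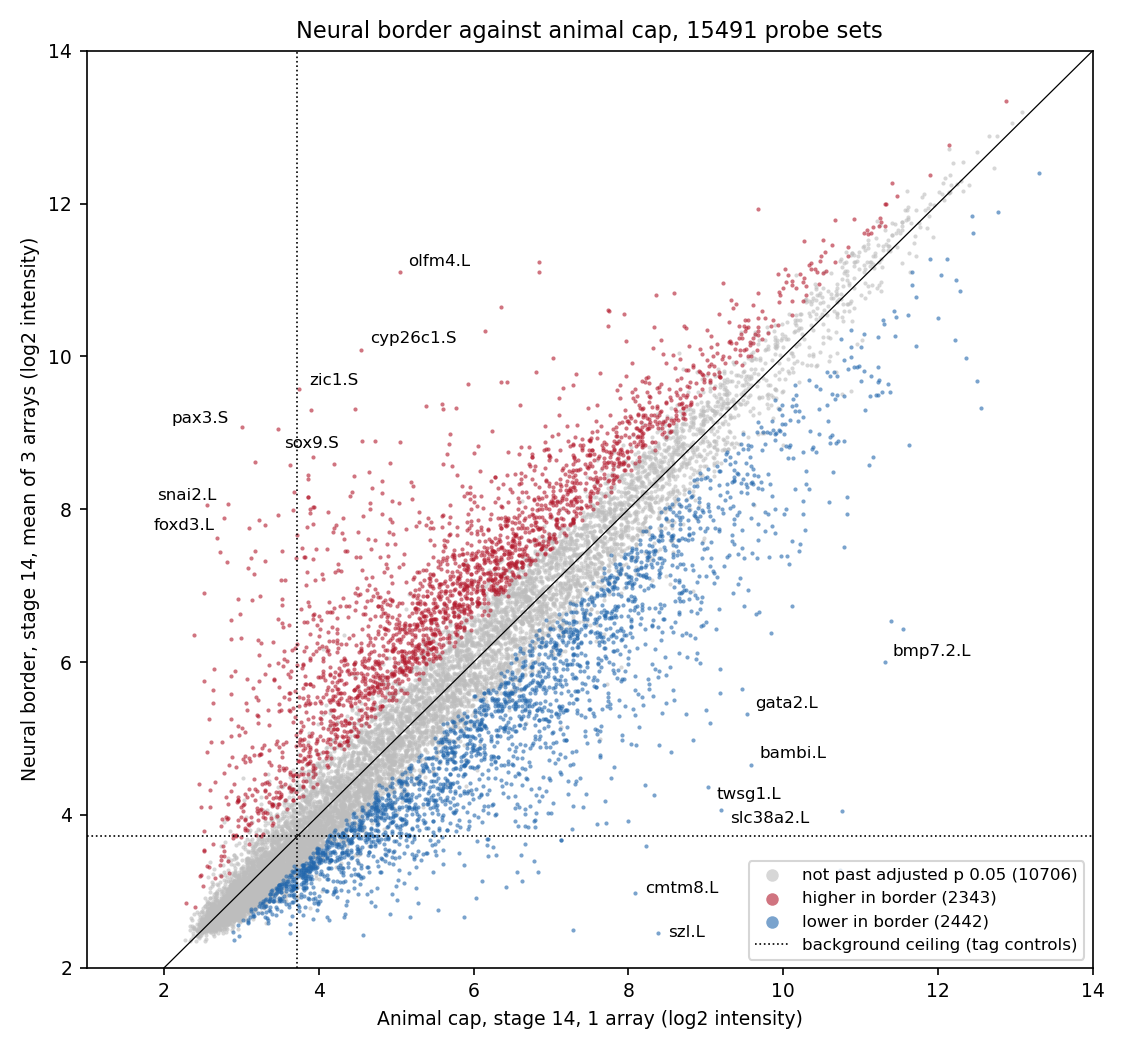
Level of each probe set in the animal cap (x axis, log2 intensity, 1 array) against its mean in the stage 14 neural border (y axis, log2 intensity, 3 arrays), with dotted lines at the background ceiling of 3.72 and a diagonal of equal level. The 2343 probe sets higher in the border (red) include pax3.S, zic1.S and sox9.S near the left background line, and the 2442 lower ones (blue) include szl.L, near the bottom of the plot, and bmp7.2.L.

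Genes that specify the neural border were higher in the border than in the cap in nearly every case. Of 14 measured border specifiers, 12 were higher, 0 were lower and 2 did not pass the test, with a median log2 difference of 1.68 against -0.05 over all named genes. The zinc-finger factor zic1, named in the series title with pax3, read 3.74 in the cap on its brighter zic1.S probe set and 9.55, 9.63 and 9.53 in the 3 border arrays. The cap lay at the edge of background and the border arrays agreed within 0.05 (SD, n = 3), giving 56.9-fold more signal in the border (log2 difference 5.83, SE 0.14, limma adjusted p = 2.3e-08). A second zic1.S probe set read 3.10 in the cap and 7.39, 7.92 and 7.98 in the border. The related zic5.S read 3.86 in the cap and 8.90, 7.97 and 8.33 in the border, a 23.3-fold difference. For zic2, the zic2.S probe set was 11.8-fold higher and zic2.L 28.6-fold higher, with zic2.L at 4.47 in the cap and 9.31, 9.27 and 9.35 in the border. The homeobox gene gbx2, which acts upstream of pax3 in the frog border, was within background in the cap on gbx2.2.L (3.53) and read 6.98, 6.68 and 6.58 in the border, at least 8.13-fold more.

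The paired-box factor pax3 gave different answers on its 5 probe sets. On pax3.S the cap read 3.01, within background, and the border 9.08, 9.14 and 9.01, the largest log2 difference among named genes that passed the test (6.06, SE 0.63, limma adjusted p = 9.38e-05, at least 40.9-fold). One pax3.L probe set behaved alike, at 3.23 in the cap and 7.75, 8.04 and 7.78 in the border. The other 3 pax3.L probe sets did not pass the test, and whether they read pax3 at all was not tested. They read 4.44, 8.41 and 8.98 in the cap, against border means of 4.83 ± 0.23, 7.48 ± 0.99 and 7.62 ± 1.00 (SD, n = 3). The brightest of them read 8.98 in the cap and 8.67, 6.69 and 7.49 in the border (limma adjusted p = 0.138). It stands for pax3 in the count above, as a specifier that did not pass, and among the neural border markers. Without border replicate 1 it was lower in the border by limma (adjusted p = 0.0132), and the count of specifiers lower in the border became 1. The AP-2 factor tfap2a, which is active in epidermis as well as in the border, was already bright in the cap at 8.27 and read 9.03, 9.23 and 9.28 in the border, 1.88-fold more (limma adjusted p = 0.00321). The homeobox gene msx1, a BMP target of the border and ventral ectoderm, read 8.13 in the cap and 8.88, 8.70 and 8.66 in the border and did not pass (adjusted p = 0.124).

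Of 11 measured neural crest specifiers, 6 were higher in the border, 0 were lower and 5 did not pass, with a median log2 difference of 2.67. In the cap, 7 of the 11 were within background. The zinc-finger repressor snai2, which drives the loss of epithelial contacts, read 2.83 in the cap on snai2.L and 8.14, 8.08 and 7.98 in the border, at least 20.3-fold more (log2 difference 5.23, SE 0.55, limma adjusted p = 0.000103). The SoxE factor sox9 read 3.47 in the cap on sox9.S and 9.27, 8.94 and 8.94 in the border, at least 40.1-fold more. The cap was within background for both genes and the border arrays were close together. The forkhead factor foxd3 was measured on both homeologs, the copies on the long (.L) and short (.S) chromosomes of this allotetraploid. It read 2.78 in the cap and 8.22, 7.67 and 7.78 in the border on foxd3.L, and 3.47 against 7.96, 7.85 and 8.0 on foxd3.S, at least 18-fold and 18.5-fold more. The AP-2 factor tfap2b, on tfap2b.L, lay at 3.67 in the cap and 7.83, 8.08 and 8.08 in the border. The other specifiers higher in the border were snai1.S, at least 10.2-fold, and sox10.L, a later crest factor whose border arrays reached only 5.54, 5.31 and 4.89, at least 2.88-fold. The 5 that did not pass were ets1, id3, myb and a pair of lmo4 copies. Of these, id3, a BMP target that also marks crest precursors, read 9.48 in the cap and 10.04, 9.72 and 9.60 in the border, bright in both tissues.

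Crest effector and migration genes had a smaller median difference. Of 22 measured, 11 were higher in the border, 0 were lower and 11 did not pass, and the median log2 difference was 0.38. Within background were 7 of the 22 in the cap and 8 in the border. The growth factor receptor pdgfra.L read 4.06 in the cap and 7.18, 6.86 and 7.23 in the border, 8.19-fold more (limma adjusted p = 2.1e-05). The guidance receptor epha4.L was 5.9-fold higher, the matrix metalloprotease mmp14.L 5.63-fold and the FGF receptor fgfr1.L 4.99-fold. In the anterior fold, which makes no crest, epha4.L and fgfr1.L averaged 8.35 and 8.58, above their stage 14 border means of 7.55 and 7.91. There pdgfra.L and mmp14.L averaged 4.73 and 5.40, below border means of 7.09 and 7.10. The chemokine receptor cxcr4.L was bright in both tissues, at 9.48 in the cap and 8.83, 9.09 and 9.13 in the border (adjusted p = 0.081).

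**Figure D2:**
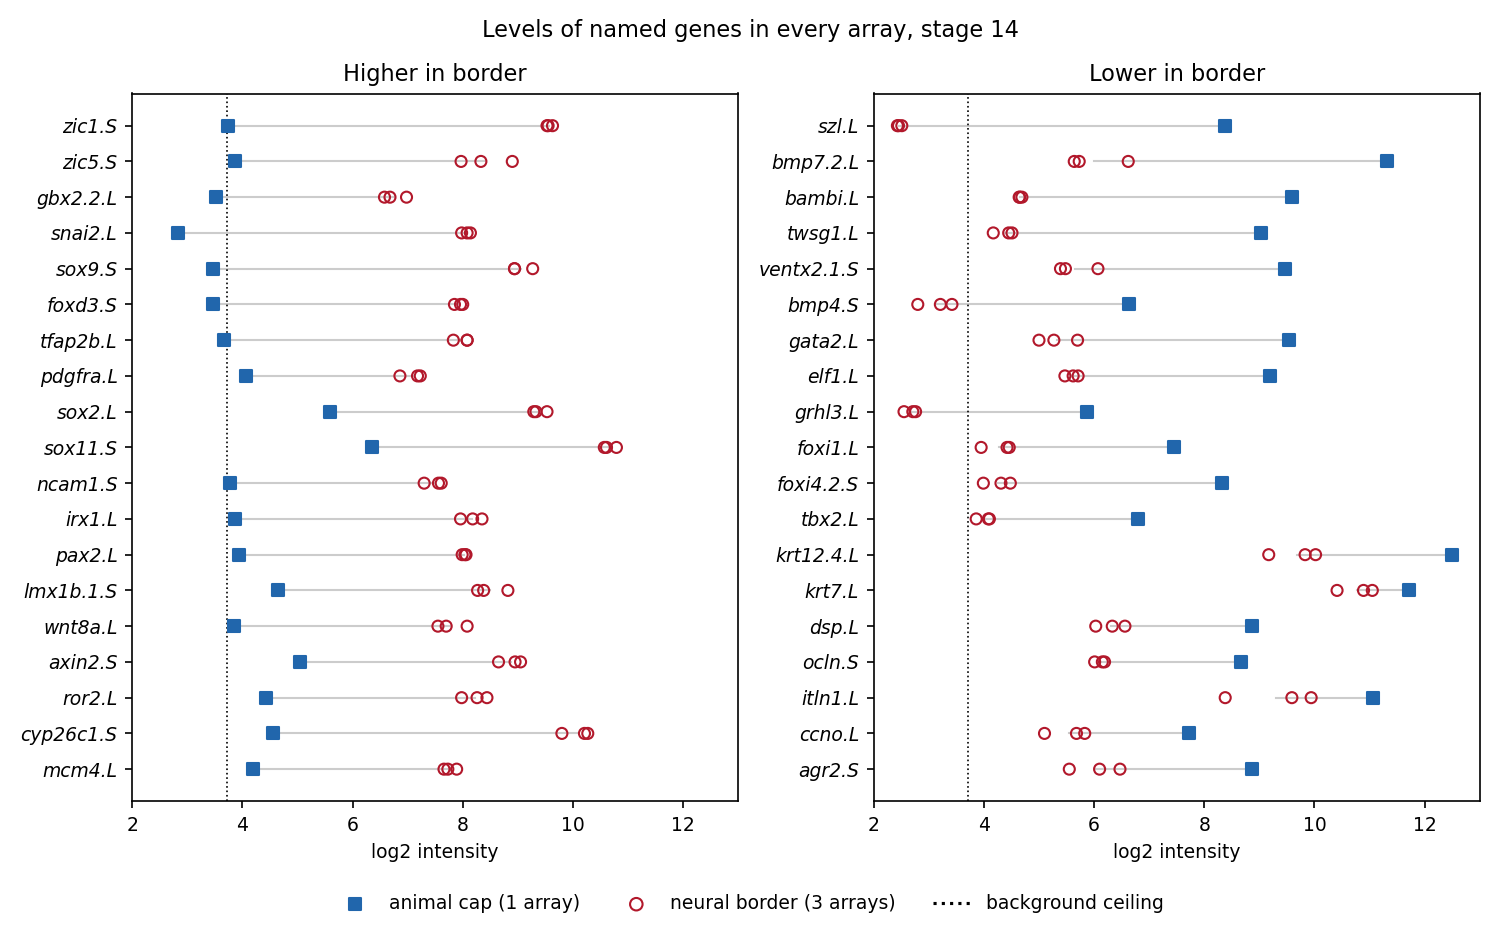
Log2 intensity (x axis) of 38 named genes in the animal cap (blue square, 1 array) and in each of the 3 stage 14 neural border arrays (red circles), with the background ceiling of 3.72 dotted and a grey line from the cap to the border mean. In the left panel every border array lies above the cap, by the widest gap for zic1.S, and in the right panel every border array lies below it, with the szl.L, bmp4.S and grhl3.L border arrays within background.

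Genes of neural progenitors were also higher in the border. Of 26 measured neural plate genes, 16 were higher, 2 were lower and 8 did not pass, with a median log2 difference of 1.18. The progenitor factor sox2.L read 5.59 in the cap and 9.53, 9.29 and 9.33 in the border, 13.8-fold more (limma adjusted p = 9.56e-06). The Sox family gene sox11.S read 6.36 in the cap and 10.79, 10.57 and 10.61 in the border, 19.7-fold more. The zinc-finger factor zeb2.S was within background in the cap (3.12) and read 7.53, 7.29 and 7.25 in the border. The neural adhesion molecule ncam1.S was 13.1-fold higher. The 2 lower genes, hes5.10.L and hes5.3.L, belong to the Hairy/Enhancer-of-split repressors, and 2 relatives of the same family, hes5.1.L and hes5.2.L, were higher.

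Of 20 measured neuronal differentiation genes, 5 were higher, 0 were lower and 15 did not pass, with a median log2 difference of 0.25. The share higher was 25% against 16.8% over all named genes. The RNA-binding protein elavl3.L, an early neuronal marker, read 4.36 in the cap and 7.17, 7.65 and 7.53 in the border, 8.49-fold more (limma adjusted p = 0.000218). The Notch ligand jag1.L was 5.71-fold higher, the intermediate filament gene prph.L 4.62-fold and the tubulin tubb2b.S 2.74-fold. The proneural ligand gene dll1.L did not pass and read 8.18 in the cap and 8.16, 7.63 and 7.63 in the border.

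Genes that pattern the neural tube from head to tail were counted in separate lists. Of 21 midbrain, hindbrain and posterior neural genes, 13 were higher, 0 were lower and 8 did not pass (median log2 difference 1.2). The Iroquois factor irx1.L read 3.86 in the cap and 8.35, 8.18 and 7.96 in the border, 19.7-fold more (limma adjusted p = 6.25e-06). The midbrain-hindbrain factor pax2.L read 3.94 in the cap and 8.04, 8.06 and 7.99 in the border, 17-fold more. The cap was near background for both and no border array came near it. The dorsal midline factor lmx1b.1.S was 14.3-fold higher, and irx3.L at least 13.2-fold.

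Of 17 anterior neural genes, 6 were higher, 1 was lower and 10 did not pass (median log2 difference 0.56). The eye factor pax6.L read 2.68 in the cap and 7.75, 7.37 and 7.77 in the border on the probe set with its largest difference, at least 15-fold more, and 4.22 against 7.97, 7.37 and 8.01 on its brighter probe set. The homeobox genes crx.L and otx1.L, relatives that pattern the anterior head, were 9.2-fold and 6.83-fold higher. The lower member was tll1.S, which encodes a tolloid-like protease that cleaves the BMP antagonist Chordin and also stands in the BMP list. It read 6.61 in the cap and 3.57, 3.27 and 3.59 in the border, at least 7.4-fold less. Of 19 Hox genes, 2 were higher, 1 was lower and 16 did not pass (median log2 difference -0.13), and 12 were within background in the cap. Their shares, 10.5% higher and 5.26% lower, were below the 16.8% and 17.7% over all named genes. The higher ones, hoxa2.L and hoxa3.S, are expressed in the hindbrain and the crest leaving it. The border mean reached only 4.1 ± 0.5 (SD, n = 3) for hoxa2.L and 3.93 ± 0.27 for hoxa3.S. The lower one, hoxa11.S, read 4.74 in the cap and 3.80, 3.71 and 3.64 in the border. The number of lower Hox genes was 2 without border replicate 2, without stage 18 border replicate 1 or 2, or without anterior fold replicate 3.

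Placode genes, which mark the sensory territories beside the anterior border, were lower for 4 of 13 measured members, with 2 higher, 7 not past the test and a median log2 difference of 0.09. The share higher, 15.4%, was below the 16.8% over all named genes, and the share lower was 30.8% against 17.7%. Those higher, irx1.L and tfap2a.L, stand in other lists too. The largest difference in the other direction was that of foxi4.2.S, a forkhead gene of non-neural ectoderm, which read 8.33 in the cap and 3.99, 4.31 and 4.48 in the border, 16.8-fold less. The related foxi1.L was 9.03-fold lower and the T-box repressor tbx2.L 6.91-fold lower. Of these, foxi1.L is also counted below among the epidermal transcription factors and the ionocyte genes.

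Components of the BMP pathway were the other main group, and most that passed were lower in the border. Of 35 measured, 19 were lower, 5 were higher and 11 did not pass, and the median log2 difference was -0.68. Among the ligands, bmp7.2.L read 11.31 in the cap and 5.64, 5.73 and 6.62 in the border, 39.7-fold less (log2 difference -5.31, SE 0.33, limma adjusted p = 5.77e-06). The bmp7.1.L copy was lower too (log2 difference -3.63). The bmp4.S probe set read 6.63 in the cap and 2.80, 3.42 and 3.21 in the border, within background in every border array and at least 7.49-fold less. The ligands bmp2.L, gdf6.S and admp.S did not pass, with log2 differences of -0.06, 0.19 and 0.07.

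Receptors and signal transducers differed by less. The type I receptors acvr1.S and bmpr1a.L were 2.38-fold and 2.26-fold lower in the border. The signal-transducing smad1.S was 2.63-fold lower and smad9.S 2.29-fold. Of the type II receptors, acvr2a.L was 1.34-fold lower, acvr2b.S was 2.2-fold higher, and bmpr2.S did not pass (log2 difference -0.04).

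The feedback regulators that BMP signalling itself turns on showed wide gaps. The Sizzled gene szl, whose product blocks tolloid proteases, read 8.38 in the cap on szl.L and 2.51, 2.43 and 2.45 in the border. All border arrays were within background and close together, and the difference was at least 25.2-fold (log2 difference -5.91, SE 0.13, limma adjusted p = 1.82e-08). The decoy receptor bambi.L read 9.59 in the cap and 4.64, 4.65 and 4.69 in the border, 30.5-fold less. The BMP-binding protein twsg1.L read 9.03 in the cap and 4.51, 4.45 and 4.17 in the border, 25.3-fold less. The inhibitory smad7.L and smad6.L were 3.89-fold and 2.72-fold lower, and the homeobox target ventx2.1.S, a ventral repressor, 14.2-fold lower. The direct target id2.L was 5.06-fold lower, whereas id3 did not pass.

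The antagonists secreted by dorsal tissue stood on the other side. Noggin (nog.L) was within background in the cap at 3.06 and read 5.60, 5.52 and 5.26 in the border, at least 3.33-fold more (limma adjusted p = 0.000416). Chordin (chrd.1.S) read 3.82 in the cap and 5.50, 5.54 and 5.29 in the border, 3.08-fold more. Follistatin (fst.L) was 1.86-fold higher and fstl1.L 2.43-fold. With acvr2b.S these make the 5 members higher in the border. No border array fell to the cap's level for nog.L or chrd.1.S, though both remained dim in the border.

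Wnt pathway genes were higher in the border where they passed, with few exceptions. Of 44 measured, 17 were higher, 2 were lower and 25 did not pass (median log2 difference 0.25), and 22 were within background in the cap. Among the ligands, wnt8a.L, an inducer of the border and of posterior fate, read 3.85 in the cap and 7.70, 8.08 and 7.55 in the border, 15.2-fold more (limma adjusted p = 1.82e-06). The ligand wnt11b.L read 4.25 in the cap and 7.42, 7.51 and 6.90 in the border, 8.18-fold more. The dorsal neural ligands wnt1.L and wnt3a.S were 3.59-fold and at least 2.27-fold higher. Among receptors, ror2.L was 13.9-fold higher, fzd7.L 6.29-fold and fzd3.L 4.26-fold. The negative feedback gene axin2.S, a transcriptional readout of canonical Wnt signalling, read 5.05 in the cap and 9.05, 8.65 and 8.95 in the border, 14.2-fold more. The members lower in the border were fzd8.S, 1.41-fold, and the transcription factor tcf7l1.L, 2.2-fold, and without border replicate 3 there was 1.

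Of 18 FGF genes, 4 were higher, 1 was lower and 13 did not pass (median log2 difference 0.29). The share higher, 22.2%, lay near the 16.8% over all named genes, and the share lower was 5.56% against 17.7%. The higher genes were the receptor fgfr1.L, the immediate early target egr1.L, the ETS factor etv4.L and the ligand fgf3.L, which read 3.16 in the cap and 4.64, 5.10 and 4.59 in the border. The receptor gene fgfr4 was not counted among them, although its fgfr4.L probe sets were higher past the threshold (log2 differences 1.80 and 2.36). Its fgfr4.S copy read 8.84 in the cap and 8.94, 8.87 and 8.83 in the border and did not pass. The egr1.L values were spread, at 4.38 in the cap and 7.44, 5.67 and 6.67 in the border. The lower gene, the phosphatase dusp1.L (2-fold), no longer passed without border replicate 2 (adjusted p = 0.0509) or 3 (adjusted p = 0.054), which left 0 lower. Of 21 Notch pathway genes, 8 were higher, 2 were lower and 11 did not pass (median log2 difference 0.65). The repressor hes7.1.L read 3.86 in the cap and 8.89, 8.31 and 8.16 in the border, 24.1-fold more, and hes1.S was 8.7-fold higher.

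Retinoic acid is made from vitamin A and broken down by Cyp26 enzymes, and its level helps set posterior neural identity. Of 14 genes of this pathway, 5 were higher, 3 were lower and 6 did not pass (median log2 difference 0.18). The share higher was 35.7% against 16.8% over all named genes, and the share lower 21.4% against 17.7%. The breakdown enzyme cyp26c1.S read 4.55 in the cap and 10.27, 10.21 and 9.80 in the border, 46.6-fold more (limma adjusted p = 3.53e-05). The related cyp26a1.S was 3.24-fold higher and the binding protein crabp2.L 5.29-fold. The synthesising enzyme aldh1a2.L did not pass (log2 difference 0.19). Another synthesis gene, rdh10.L, was counted as higher (1.99-fold), although its rdh10.S copy was lower. The lower members were the receptor rxra.L, 1.55-fold, and rbp4.S and rxrg.L, which were within background in the border.

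Where a list had 0 members past the threshold in a direction, the limma count at an unadjusted p of 0.05 in that direction was also 0, except for 1 lower effector gene (cxcr4.L), 1 lower axial mesoderm gene, 1 higher junction gene and 1 higher blood and heart gene. Some genes stand in several lists. In the neural plate, anterior neural, Wnt and Notch lists the share lower was 7.69%, 5.88%, 4.55% and 9.52%, against 17.7% over all named genes. In the BMP list the share higher was 14.3%, against 16.8%, and the share lower 54.3%, against 17.7%. Shares higher were 85.7%, 54.5% and 50% for border specifiers, crest specifiers and crest effector genes, against 16.8% over all named genes. They were 61.5%, 61.9%, 35.3%, 38.6% and 38.1% in the neural plate, posterior neural, anterior neural, Wnt and Notch lists.

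**Figure D3:**
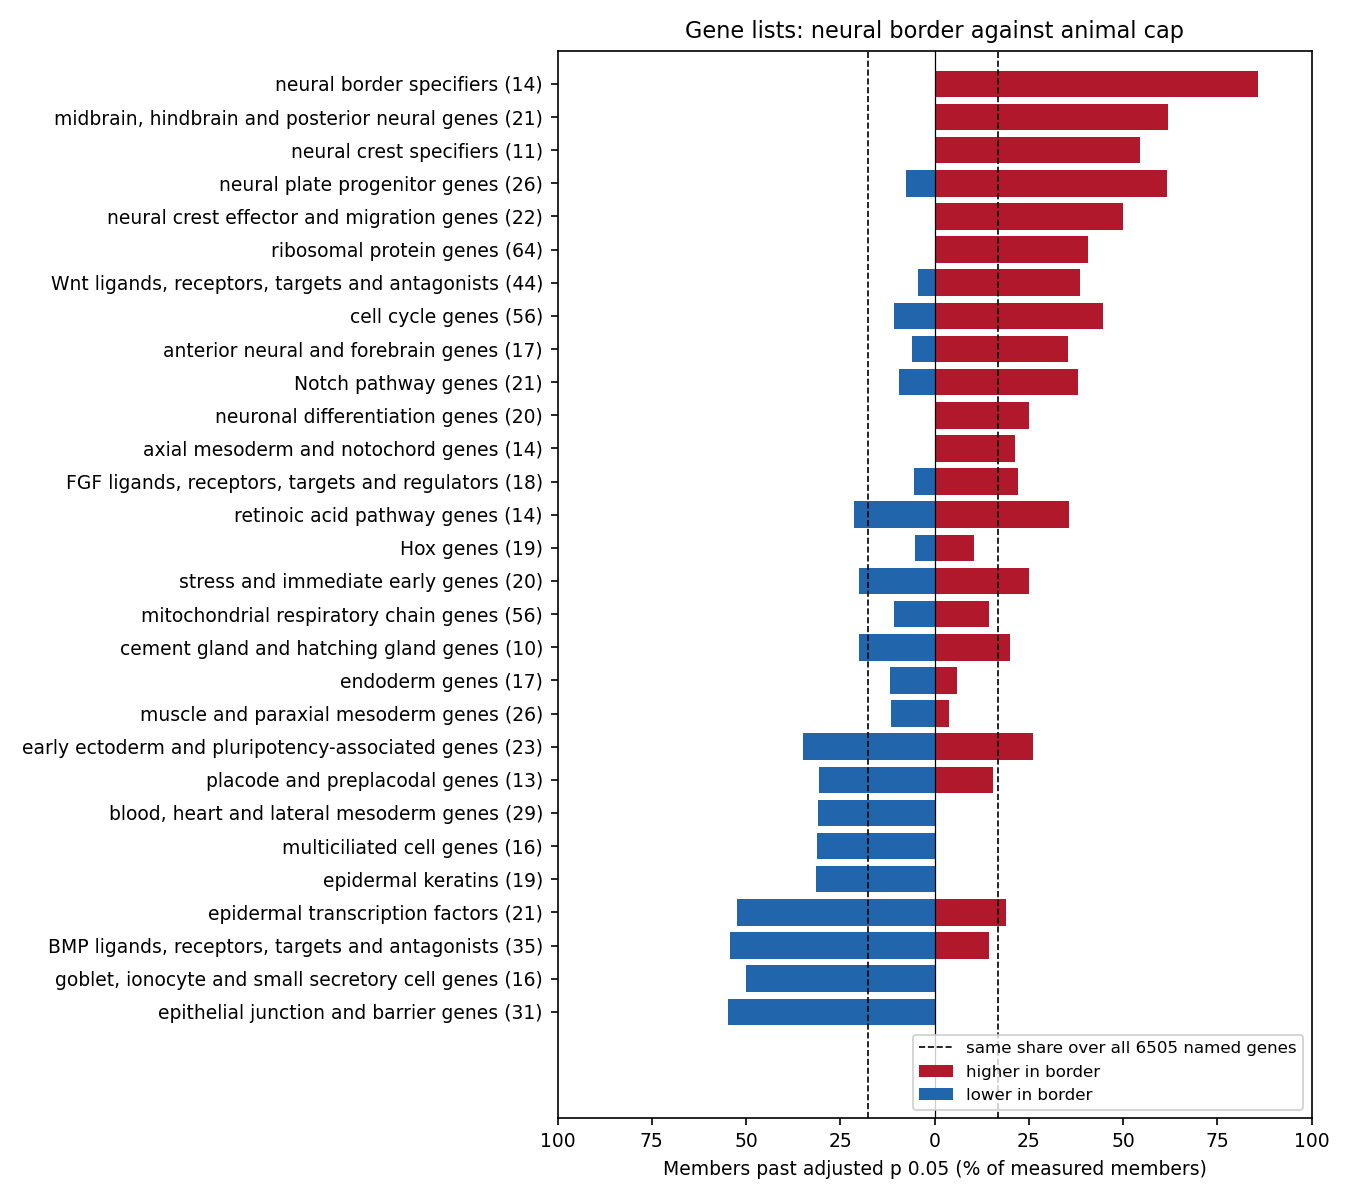
Share of the measured members of each gene list (percent, x axis, number measured in parentheses) that were higher (red, to the right) or lower (blue, to the left) in the stage 14 neural border than in the animal cap at an adjusted p of 0.05, with dashed lines at the shares over all 6505 named genes, 16.8% and 17.7%. Border specifiers reach 85.7% on the right and epithelial junction and barrier genes 54.8% on the left.

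Epidermal transcription factors were mostly lower in the border. Of 21 measured, 11 were lower, 4 were higher and 6 did not pass, with a median log2 difference of -0.86. The share lower was 52.4% against 17.7% over all named genes, and the share higher, 19%, lay near the 16.8%. The GATA factor gata2.L, a ventral BMP target, read 9.53 in the cap and 5.00, 5.27 and 5.70 in the border, 18.5-fold less (limma adjusted p = 5.11e-05). The Grainyhead factor grhl3.L, a regulator of epidermal barrier genes, read 5.88 in the cap and 2.55, 2.76 and 2.71 in the border, within background and at least 4.46-fold less. The ETS-family gene elf1.L was 12-fold lower. The 4 higher genes, hes1.S, msx2.L, prdm1.S and tfap2a.L, are also known from the border or the neural plate. The stem-cell factor tp63.L did not pass, at 4.77 in the cap and 3.66, 4.05 and 4.02 in the border (adjusted p = 0.151).

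Keratins separated the tissues less clearly. Of 19 measured entries, 6 were lower in the border, 0 were higher and 13 did not pass (median log2 difference -0.22), and 10 were within background in the cap. The share lower was 31.6%, against 17.7% over all named genes. The larval epidermal keratin krt12.4.L read 12.50 in the cap and 9.17, 10.02 and 9.83 in the border, 7.1-fold less (limma adjusted p = 0.00016). The border was thus lower but still far above background. The related krt12.5.S read 11.71 in the cap and 9.61, 10.61 and 10.20 in the border and lay close to the threshold (limma adjusted p = 0.0472). It did not pass without border replicate 1 (0.0909) or 3 (0.0848), or without any of the anterior fold arrays (0.0632 to 0.0652) or either stage 18 border array (0.0569). The krt7.L probe set was 1.9-fold lower. Another entry counted as lower, krt12.2.S, was within background in both tissues, at 3.63 in the cap and a mean of 2.58 in the border. The simple-epithelium keratins krt8.1.S and krt18.1.L did not pass, and krt8.1.S read 10.85 in the cap and 9.96, 11.01 and 10.83 in the border.

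Genes of epithelial junctions and of the surface barrier were lower in 17 of 31 cases, higher in 0 and not past the test in 14, with a median log2 difference of -0.91. Their share lower was 54.8%, against 17.7% over all named genes. The desmosomal linker dsp.L read 8.86 in the cap and 6.03, 6.33 and 6.56 in the border, 5.87-fold less (limma adjusted p = 7.58e-05). The tight junction protein ocln.S read 8.66 in the cap and 6.15, 6.19 and 6.01 in the border, 5.84-fold less. The tight junction gene marveld3.L was 4.26-fold lower and the channel-activating protease prss8.S 3.67-fold. The early embryonic cadherin cdh3.L did not pass (log2 difference 0.34) and cdh1.S, E-cadherin, was 1.91-fold lower. In contrast, the neural cadherin cdh2.L was within background in the cap at 2.86 and read 6.68, 6.45 and 6.52 in the border, at least 7.1-fold more. Without anterior fold replicate 2, 1 junction gene was higher.

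The larval skin also holds goblet cells, ionocytes, small secretory cells and multiciliated cells. Of 16 genes of the secretory and ionocyte types, 8 were lower in the border, 0 were higher and 8 did not pass (median log2 difference -0.88). The share lower was 50%, against 17.7% over all named genes. The ionocyte factor foxi1.L read 7.45 in the cap and 3.95, 4.42 and 4.46 in the border, 9.03-fold less (limma adjusted p = 0.00164). The goblet cell lectin itln1.L read 11.06 in the cap and 8.38, 9.94 and 9.59 in the border, 3.37-fold less, and the border arrays spread by 0.82 (SD, n = 3). The disulphide isomerase agr2.S, of goblet cells and the cement gland, was 7.11-fold lower. The carbonic anhydrase ca12.L was 4.31-fold lower (limma adjusted p = 0.0382) but did not pass when any 1 border array at stage 14, anterior fold array or plate array was left out (0.0516 to 0.0728). Of 16 multiciliated cell genes, 5 were lower, 0 were higher and 11 did not pass (median log2 difference -0.55), and 9 were lower without stage 18 border replicate 1 or 2. In the main fit the share of multiciliated cell genes lower was 31.2%, against 17.7% over all named genes. The cyclin-related ccno.L, which drives centriole amplification, read 7.73 in the cap and 5.10, 5.83 and 5.68 in the border, 4.56-fold less. The ciliogenesis factor rfx2.S was 3.45-fold lower, the centrin cetn4.L 2.71-fold and the axonemal tekt1.L at least 1.9-fold.

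Of 10 cement gland and hatching gland genes, 2 were higher, 2 were lower and 6 did not pass (median log2 difference -0.02). Both shares were 20%, near the 16.8% higher and 17.7% lower over all named genes. The anterior marker xa-1.L was within background in the cap at 3.63 and read 8.81, 8.88 and 8.04 in the border, at least 28.9-fold more, and otx2.S was 6.39-fold higher. The lower ones were agr2.S and ventx3.2.S. The first read 8.87 in the cap and 6.10, 5.55 and 6.47 in the border (limma adjusted p = 7.96e-05). The second read 4.14 in the cap and was within background in the border, at least 1.33-fold less. The secreted cement gland protein ag1.L was bright in both tissues, at 9.84 in the cap and 9.64, 9.44 and 9.40 in the border (adjusted p = 0.192). The 2 cement gland markers averaged 9.36 in the cap and at most 7.94 in the border arrays, and 1 of them was lower past the threshold.

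Genes of early, uncommitted ectoderm moved in both directions. Of 23 measured, 8 were lower in the border, 6 were higher and 9 did not pass (median log2 difference -0.23). The share lower was 34.8% against 17.7% over all named genes, and the share higher 26.1% against 16.8%. The Oct4-related factor pou5f3.2.L read 7.96 in the cap and 4.87, 5.94 and 5.48 in the border, 5.77-fold less (limma adjusted p = 0.000962). Its relatives pou5f3.1.L and pou5f3.3.L were 2.22-fold and at least 2.11-fold lower. The higher members included sox2.L (13.8-fold) and otx1.L (6.83-fold), which are also counted in the neural plate and anterior neural lists. The RNA-binding proteins lin28a.S and lin28b.S were 4.83-fold and 4.02-fold higher.

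Markers of muscle and notochord were mostly within background in both tissues, whereas some markers of endoderm and blood were not. Of the 4 markers used for muscle and paraxial mesoderm, myf5.L, myod1.L and tbx6.L were within background in both tissues, and the list averaged 4.2 in the cap and 3.48 to 3.92 in the border. The remaining muscle marker was above background in both tissues and did not pass the test. Of 6 notochord and organizer markers, 5, including tbxt.S and shh.L, were within background in both, and the list averaged 3.37 in the cap and 3.37 to 3.44 in the border. Of 6 endoderm markers, gata4.L, hhex.L and sox17a.S were within background in both, 1 was higher and 1 lower, and the list averaged 3.90 in the cap and 3.91 to 3.98 in the border. The higher one, a2m.S, read 5.43 in the cap and 7.37, 6.77 and 7.31 in the border. Of 8 blood markers, 3 were within background in both and 1 was lower, and the list averaged 4.73 in the cap and 4.42 to 4.47 in the border. The lower one, the globin hba-l5.L, read 8.99 in the cap and 8.60, 8.38 and 8.26 in the border. In the longer muscle list, 1 of 26 was higher, 3 were lower and 22 did not pass (median log2 difference -0.12). Its shares, 3.85% higher and 11.5% lower, were below the 16.8% and 17.7% over all named genes. The higher one, the protocadherin pcdh8l.S, read 3.70 in the cap and 7.43, 7.15 and 7.49 in the border. The lower ones were troponin and tropomyosin genes, tnni2.S, tpm1.L and tnnc1.S. The border was within background for tpm1.L, and both tissues were for tnnc1.S. By limma, tnnc1.S no longer passed without border replicate 1 or 3 or any anterior fold array (adjusted p of 0.0528 to 0.0949), with the replicate number as a block (0.118), with only the 4 arrays compared (0.112) or after quantile normalization (0.104). Of 14 axial mesoderm genes, 3 were higher, 0 were lower and 11 did not pass (median log2 difference 0.18). The share higher was 21.4% against 16.8% over all named genes. The higher ones were nog.L, chrd.1.S and lhx1.L, the last within background in both tissues and not past the test without border replicate 1 (0.0585) or 3 (0.0872) or anterior fold replicate 1 (0.0513) or 3 (0.0529), with the replicate number as a block (0.0954) or with only the 4 arrays compared (0.0668). Of 17 endoderm genes, 1 was higher, 2 were lower and 14 did not pass (median log2 difference -0.12). Those shares, 5.88% and 11.8%, were also below the ones over all named genes. Of 29 blood, heart and lateral mesoderm genes, 9 were lower, 0 were higher and 20 did not pass (median log2 difference -0.23), and 1 was higher without plate replicate 1 or 2. In the main fit the share of this list lower was 31%, against 17.7% over all named genes. The largest differences among the 9 lower genes were those of gata2.L and bmp4.S, described above. The heart factors nkx2-5.S and nkx2-3.L followed, at least 1.41-fold and 2.01-fold lower. The part of carried-over neighbouring tissue in any result was not tested.

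Of 56 cell cycle genes, 25 were higher, 6 were lower and 25 did not pass (median log2 difference 0.41). The share higher was 44.6% against 16.8% over all named genes, and the share lower, 10.7%, was below the 17.7%. The replicative helicase subunit mcm4.L read 4.19 in the cap and 7.73, 7.89 and 7.66 in the border, 11.9-fold more (limma adjusted p = 7.53e-07). The subunits mcm6.2.L and mcm5.L were 8.5-fold and 5.49-fold higher, and the sliding clamp pcna.L 4.72-fold. Other helicase genes went the other way, mcm6.L by 1.84-fold and mcm3.L by at least 1.49-fold, and the mitotic cyclin genes ccnb1.2.L and ccnb2.S were 1.68-fold and 1.87-fold lower. Without border replicate 2, 3 cell cycle genes were lower.

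Of 64 ribosomal protein genes, 26 were higher, 0 were lower and 38 did not pass, with a median log2 difference of 0.44. Their share higher was 40.6%, against 16.8% over all named genes. The number higher was 18 to 28 on leaving out 1 array and 16 with the replicate number as a block. The differences were small. The widest among those past the threshold, rps2.L, read 10.67 in the cap and 11.71, 11.79 and 11.84 in the border, 2.15-fold more (limma adjusted p = 0.000345). Of 56 genes of the mitochondrial respiratory chain, 8 were higher, 6 were lower and 42 did not pass (median log2 difference -0.02), and without border replicate 2 or 3 the number lower was 3. The shares of respiratory chain genes that passed, 14.3% higher and 10.7% lower, were below the 16.8% and 17.7% over all named genes.

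Stress and immediate early genes, which can respond to dissection and culture, were mixed. Of 20 measured, 5 were higher in the border, 4 were lower and 11 did not pass (median log2 difference 0.05), and without border replicate 2 or 3 the number lower was 2. The shares in the main fit, 25% higher and 20% lower, compare with 16.8% and 17.7% over all named genes. The haem oxygenase gene hmox1.L read 6.43 in the cap and 9.89, 9.42 and 9.66 in the border, 9.35-fold more (limma adjusted p = 8.89e-06). The AP-1 gene junb.L read 4.48 in the cap and 8.04, 6.53 and 7.53 in the border, 7.44-fold more. The growth arrest gene gadd45a.S was 5.15-fold lower. The heat shock gene hsp70.L read 5.13 in the cap and 8.68, 4.04 and 7.40 in the border and did not pass (adjusted p = 0.427). Border replicate 1 was the highest and replicate 2 the lowest of the border arrays for hsp70.L, junb.L and egr1.L alike. The part of handling in the results was not tested.

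Among the 12 named genes with the largest differences in each direction, some stood outside these lists. The secreted glycoprotein gene olfm4.L read 5.05 in the cap and 10.33, 11.61 and 11.35 in the border, 66-fold more (limma adjusted p = 3.37e-05). The purine nucleoside phosphorylase gene pnp.L read 3.93 in the cap and 7.76, 9.25 and 9.07 in the border, 27.2-fold more, with replicate 1 below the other border arrays. In the opposite direction, the amino acid transporter gene slc38a2.L read 9.20 in the cap and 4.61, 3.96 and 3.60 in the border, 35.4-fold less. The membrane protein gene cmtm8.L read 8.08 in the cap and was within background in the border, at 3.04, 3.18 and 2.72, at least 20.5-fold less. The uncharacterised LOC100036828 read 11.55 in the cap and 6.91, 5.98 and 6.39 in the border, 34.8-fold less. The genes rassf3.S, fut1.S and tmem267.L were 16.8-fold, 14.3-fold and 14.2-fold lower.

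Levels in the remaining tissues are set beside these differences for a few genes. The comparisons share the border arrays and were made in the same model, in which 41% of probe sets differed between the stage 14 border and the plate and 14.8% between that border and the anterior fold. The crest specifier snai2.L lay at 2.59 ± 0.06 (SD, n = 2) in the stage 12 plate, within background as in the cap, at 8.13 ± 0.11 (SD, n = 2) in the stage 18 border and at 4.12 ± 1.02 (SD, n = 3) in the anterior fold. The stage 14 border exceeded both plate and fold (log2 differences 5.48 and 3.95, limma adjusted p = 9.79e-06 and 0.000194). By contrast, zic1.S was highest in the plate, at 10.50 ± 0.16 (SD, n = 2), and the border lay below it by limma (log2 difference -0.92, adjusted p = 0.000127).

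Genes high in the cap also differed in their level in the plate. The szl.L probe set was within background in plate (2.59 ± 0.14), stage 18 border (2.32 ± 0.08) and fold (2.40 ± 0.02), so that the cap was the only group above it. The ligand bmp7.2.L read 11.25 ± 0.23 (SD, n = 2) in the plate and 11.31 in the cap, and the border lay below the plate (log2 difference -5.25, limma adjusted p = 8.5e-07). The forkhead gene foxi4.2.S (8.32 ± 1.09) and LOC100036828 (11.44 ± 0.05) were likewise bright in the plate. The pluripotency factor pou5f3.2.L read 11.46 ± 0.53 in the plate and 7.96 in the cap. The keratin krt12.4.L and the lectin itln1.L had yet another order. They were dim in the plate, at 5.55 ± 0.05 and 4.08 ± 0.08 (SD, n = 2). In the stage 18 border they reached 10.91 ± 0.51 and 12.21 ± 0.18 (SD, n = 2), against 12.50 and 11.06 in the cap.

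**Figure D4:**
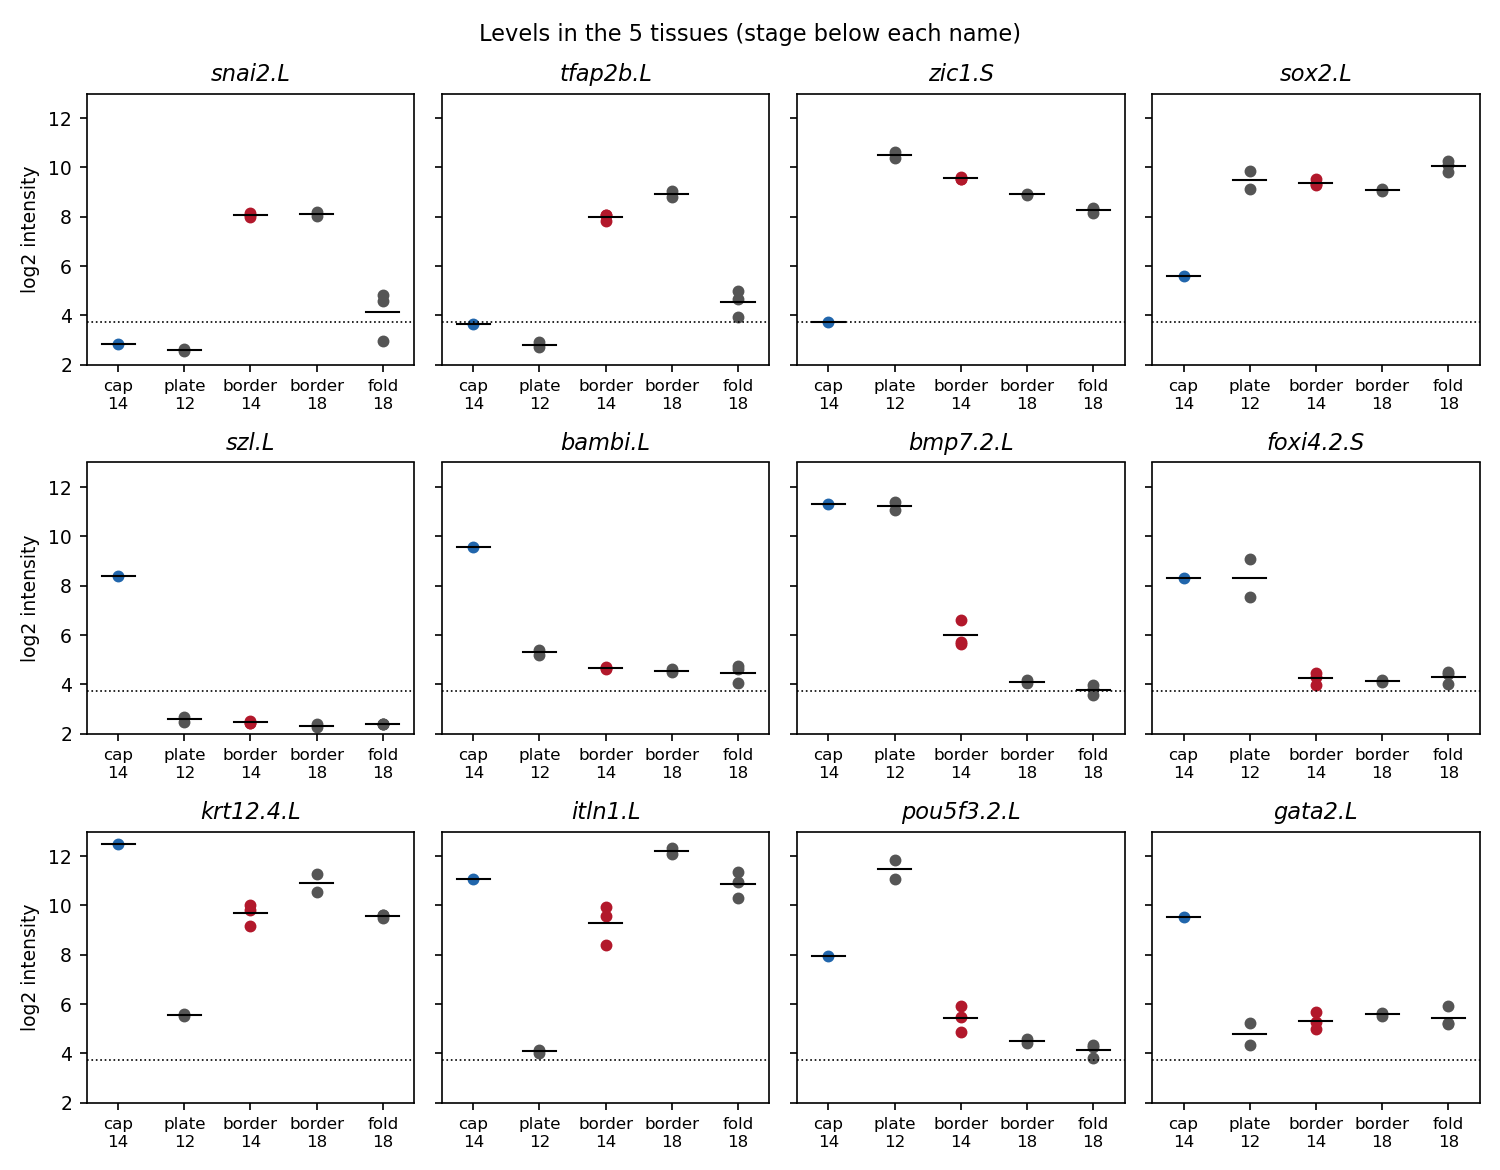
Log2 intensity (y axis) of 12 genes in animal cap at stage 14 (blue), plate at stage 12, border at stage 14 (red), border at stage 18 and anterior fold at stage 18, with points for arrays, bars for group means and the background ceiling of 3.72 dotted. The cap shares its low level of snai2.L with the plate and its high level of bmp7.2.L and foxi4.2.S with the plate, while szl.L is above background in the cap array and in no other.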

How the data were processed

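Transcript levels were measured on Affymetrix Xenopus laevis arrays. The deposited table held log2 intensities for 15611 probe sets. The submitters' processing notes name R 2.14.2, and the background correction, summary and normalization are not given in the sources used here. That the values are log2 and on a common scale was read from their range (2.13 to 13.56) and from the array medians.

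Of 15491 probe sets that are not controls, 9304 had 1 gene symbol in the platform annotation, with symbols brought up to date by gene ID from RefSeq's table (9227 matched). Another 195 had several symbols and 5992 were unnamed here. No genome was used.

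A linear model in limma 3.58.1 (R 4.3.3) was fitted to the deposited log2 values of all 11 arrays, with a mean per group and no block. eBayes used 6 residual and 3.75 prior degrees of freedom (prior SD 0.16). Two-sided p-values were adjusted by Benjamini-Hochberg over 15491 probe sets, with a threshold of 0.05. The number of arrays limits the precision.

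Gene lists came from textbook knowledge, and the members and lists were chosen with earlier results of these data known. Each gene was counted by whichever of its probe sets was brightest on average over the 11 arrays, and numbered tandem copies were included. Wildcards also took in krtcap3, fgfr1op2, cdkn2aip and hspa14, which are not members by function. The respiratory chain list likewise took in ndufaf7.S, an assembly factor rather than a subunit, which was counted as higher (log2 difference 1.41). The genes named were the 12 with the largest difference in each direction among those past the threshold with the cap outside the border range, from each list the 4 members with the largest differences that passed (fewer where fewer passed), and all probe sets of pax3, zic1 and tfap2a. Other genes named beside them were chosen after their values were seen.

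Alternatives were quantile normalization, median centring, leaving out dim probe sets, fitting only the 4 arrays, trend and robust moderation, the replicate number as a block, averaging all probe sets of a gene, and leaving out each replicated array in turn.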

Additional observations from a re-analysis of the deposited data

How the results depend on the processing

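Over all alternatives except the averaging of probe sets, 3902 to 4980 probe sets passed the threshold against 4785. Of the 147 named probe sets 0 reversed in these settings, with 133 of them present once dim probe sets were left out. Every setting kept the same cap array, so none could show how much the results depend on it. Leaving out 1 array gave 1979 to 2420 higher and 1923 to 2560 lower. Border and cap share 1 replicate number. Same-numbered arrays of the border and other groups deviated together at -0.03 to 0.16 and 2 of 7 correlated best with their own number, so the numbers were not taken as pairs. With the replicate block, 1994 probe sets were higher and 1914 lower, 1 Wnt, 0 FGF, 5 blood and heart, 2 cell cycle and 2 respiratory chain genes were lower, 16 ribosomal protein genes were higher, and 7 of the 147 missed the threshold, atp5f1d.L, cox7a2l.L, dusp1.L, eef1a1.S, lhx1.L, sdhd.S and tnnc1.S (0.0523 to 0.118). Quantile normalization gave 4 Hox genes higher and 2 lower. With only the 4 arrays, 8 multiciliated, 1 Wnt, 0 FGF, 1 retinoic acid, 5 blood and heart and 2 stress genes were lower, 1 blood and heart gene was higher, and 8 of the 147 named probe sets missed the threshold, egr1.L, itln1.L, krt7.L, eef1a1.S, lhx1.L, tnnc1.S, dusp1.L and cox7a2l.L (adjusted p of 0.0713, 0.103, 0.0699, 0.0644, 0.0668, 0.112, 0.0916 and 0.0756). Trend and robust moderation gave 1 Wnt and 4 endoderm genes lower. In that setting 2 of the 147 named probe sets missed the threshold, krt12.5.S and ca12.L (limma adjusted p of 0.0555 and 0.0504). Averaging all probe sets of a gene gave 1 keratin and 1 junction gene higher, and 1 Wnt and 0 FGF genes lower. Without dim probe sets, 4314 of 10963 passed, 0 Hox genes were higher, and 1 neural plate, 1 gland, 1 Notch, 1 retinoic acid, 1 endoderm and 4 blood and heart genes were lower. Leaving out 1 array in turn, the number lower ranged from 0 to 1 for border specifiers and FGF genes, 1 to 2 for Hox and Wnt genes, 4 to 9 for multiciliated genes, 2 to 5 for stress genes, 3 to 7 for cell cycle genes and 3 to 6 for respiratory chain genes, and the number higher from 18 to 28 for ribosomal protein genes and from 0 to 1 for junction genes and for blood and heart genes. The cause of these shifts was not tested, except that fewer probe sets were tested without dim ones and fewer arrays estimated the spread with 4.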

Other observations

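Several strong differences lay outside the lists and were chosen after their values were seen. The complement component c3.L read 6.85 in the cap and 10.98, 11.51 and 11.22 in the border, 20.9-fold more (limma adjusted p = 0.000327), and properdin, cfp.L, read 5.61 against 9.34, 9.25 and 9.35, 13-fold more. The water channel gene aqp3.L was 10.7-fold higher, the heparin-binding growth factor gene mdk.L 9.88-fold and the intermediate filament gene vim.L 18.1-fold. The collagen chaperone gene serpinh1.S read 3.88 in the cap and 8.89, 6.75 and 8.20 in the border, 16.7-fold more, with border replicate 2 the lowest. In the other direction, the growth factor gene pdgfa.S, which encodes a ligand of the receptor Pdgfra, read 7.37 in the cap and 4.72, 4.49 and 4.27 in the border, 7.34-fold less, while pdgfra.L was 8.19-fold more. The T-box gene tbx3.S was 13.2-fold lower, trim29.L 6.95-fold, the zinc-finger gene znf750.L 6.85-fold and the glycolytic hexokinase gene hk2.L 9.76-fold.

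The .L and .S copies of a gene could be compared in 1017 pairs. Both copies were higher in the border in 97 pairs and both lower in 112, while 329 pairs had 1 copy past the threshold and 469 had neither. In 10 pairs the copies passed in opposite directions. For the transcriptional corepressor tle5, tle5.L read 6.33 in the cap and 7.54, 7.69 and 7.59 in the border, and tle5.S 8.85 against 8.51, 8.34 and 8.28 (limma adjusted p = 9.85e-05 and 0.0434). For the tetraspanin cd82, cd82.L read 5.07 against 6.54, 7.02 and 6.78, and cd82.S 8.78 against 7.77, 7.57 and 7.70. The retinol dehydrogenase rdh10, which makes a precursor of retinoic acid, was 1.99-fold higher on rdh10.L, at 5.92 against 7.14, 6.92 and 6.68, and lower on rdh10.S, at 5.73 against 5.25, 5.10 and 4.98. Whether the probe sets of a pair each read only their own copy was not tested.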
